A study of Danio rerio with 94 samples.

Results

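The transcript levels of zebrafish embryos exposed to 2,6-diethylnaphthalene were compared with those of embryos exposed to 2,3-dimethylnaphthalene or 2,7-dimethylnaphthalene, all on exposure day 1. The members were taken by compound and exposure day from the sample labels, which gave 12 pools of 93 with values, namely 4 pools (B, C, D and E) of each compound. All 3 compounds carry 2 alkyl groups at beta positions of naphthalene, the ring carbons that lie away from the ring fusion. The groups are ethyl in the first compound and methyl in the other 2, so the diethyl compound has 4 alkyl carbons and each dimethyl compound has 2. The ring positions also differ, 2 and 6 against 2 and 3 or 2 and 7. The 2,6-dimethyl isomer was not analysed here, so the length of the chains and the place of the second group cannot be told apart.

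Embryos of the tropical 5D wild-type line were exposed to 20 µM of a compound from 6 to 24 hpf (hours post fertilization) in vials of 8, and whole-animal RNA was collected at 48 hpf. A pool held 6 embryos of a vial that looked normal, so affected embryos were left out of every pool, and a pool gives no value for a single embryo. The vehicle controls (DMSO) were 5 pools, 2 of exposure day 1 and 3 of exposure day 2, which the study used as a single global control. Expression was measured with TempO-Seq, in which pairs of detector oligos are ligated on the RNA and counted, for a targeted set of 3068 genes. Levels are given as log2 CPM, where CPM is the read count of a gene per M reads of the library, after the authors' batch correction and upper quartile scaling. A gene without reads has a level of -2.39, and since probes differ in efficiency, levels were not compared between genes.

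Naphthalene and its alkylated forms are volatile hydrocarbons of petroleum and combustion smoke. Fish oxidise such hydrocarbons with cytochrome P450 enzymes, on the ring or on the alkyl chain, and then conjugate the products to glutathione, glucuronate or sulfate. Larger planar aromatic hydrocarbons bind the aryl hydrocarbon receptor, a transcription factor that induces the cyp1 genes, and this induction is the most used transcript marker of such exposures in fish embryos.

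The depth of the 12 pools, as whole reads recovered from the deposited values, was 7.21 to 13.5 M. Here and below, reads are counts after the authors' batch correction and not the reads as sequenced. It was 7.21 to 11.1 M in the 2,6-diethylnaphthalene pools, 8.69 to 13.5 M in the dimethylnaphthalene pools and 8.14 to 12.7 M in the controls. The number of genes without reads was 462 to 541 in the diethyl pools, 425 to 491 in the dimethyl pools and 362 to 457 in the controls. Among the controls it was 454 and 457 in the day 1 pools, inside the dimethyl range, and 379, 381 and 362 in the day 2 pools. A single read was worth 0.0825 to 0.148 CPM in the 12 pools. The markers of tissues of a whole embryo were present in every group. The summed level of 3 skin genes was 16874 to 18706 CPM in the diethyl pools and 11005 to 19733 CPM in the dimethyl pools, and that of 9 liver, pancreas and gut genes was 3216 to 4801 CPM and 3203 to 4944 CPM. The 7 measured neuron and glia genes summed to 460 to 538 CPM in the diethyl pools and 421 to 629 CPM in the dimethyl pools. For muscle only tnnt3b (fast muscle troponin T) was measured, at 3304 to 11242 CPM and 5091 to 12713 CPM, and for heart only gata4 (a cardiac and endodermal transcription factor), at 1.48 to 15.7 CPM and 0 to 7.33 CPM. In the contrast of the diethyl with the dimethyl pools, no tissue marker passed the adjusted test below. There gata4, prss1 (trypsin), matn1 (a cartilage matrix protein) and ihha (a hedgehog ligand) had an unadjusted p under 0.05, all with higher means in the diethyl pools. They were 1 of 1 heart, 1 of 9 liver, pancreas and gut, and 2 of 6 cartilage, bone and notochord markers. The other tissues had none. Over all genes 4.34% had such a p with a higher mean and 4.86% with a lower mean. The ihha mean was 1.77 log2 CPM in the diethyl pools, 1.54 with the 2,3 isomer, -1.94 with the 2,7 isomer and 2.54 in the controls. Fewer cells of a type and less RNA per cell cannot be told apart in whole embryos.

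Few genes separated the diethyl compound from the dimethyl compounds. A gene was called differentially expressed (DEG) when its adjusted p did not exceed 0.05 and its log2 difference reached 1 in size. In the contrast of 2,6-diethylnaphthalene with the mean of both dimethyl isomers there were 2 DEGs of 3068 genes, which is 0.0652%. They were stimate, higher in the diethyl pools, and ets1, lower in them. The adjusted p alone was passed by 5 genes (0.163%), adding si:dkey-183i3.5 and dmtn, which were higher, and ilk, which was lower. The test was limma fitted to all 93 samples in 23 groups, with Benjamini-Hochberg adjustment over all genes. The same contrast gave 3 DEGs with voom on the recovered reads and 0 DEGs when limma was fitted to the 12 pools only, with 195 genes at an unadjusted p under 0.05. Without diethyl pool B or pool D the count was 1, without pool E it was 4 and without pool E of 2,3-dimethylnaphthalene it was 5.

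stimate, which encodes an endoplasmic reticulum membrane protein known from human cells to promote the activation of STIM1 in calcium entry, was at 5.45, 5.10, 5.22 and 4.70 log2 CPM in diethyl pools B, C, D and E. In the 8 dimethyl pools its lowest level was 1.68, its median 3.19 and its highest 4.18 log2 CPM, so the groups did not overlap. The 5 control pools were at 4.58, 4.65, 5.07, 4.07 and 5.00 log2 CPM, of which 2 lay inside the diethyl range and 3 under it, and only 1 was under the highest dimethyl pool. The mean was 5.12 ± 0.31 (SD, n = 4) in the diethyl pools and 3.18 ± 0.85 (SD, n = 8) in the dimethyl pools. The difference was 1.94 ± 0.41 (SE; 95% interval 1.12 to 2.75; limma adjusted p = 0.0119). Against the controls, stimate differed by 0.44 for the diethyl compound (adjusted p = 0.727), and by -1.68 and -1.31 for 2,3- and 2,7-dimethylnaphthalene (limma adjusted p = 0.0543 and 0.107). Its mean in the diethyl pools was the highest of the 22 chemicals, close to the highest mean of the other day 1 chemicals (5.05 log2 CPM). Ranked from the lowest mean, 2,3-dimethylnaphthalene was at 2 and 2,7-dimethylnaphthalene at 6. The adjusted p was 0.075 without diethyl pool B, 0.0624 without pool D and 0.396 when limma was fitted to the 12 pools only.

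ets1, a transcription factor of endothelial and blood cells, had no reads in diethyl pools B, C and D and 41 reads in pool E, which put those pools at -2.39, -2.39, -2.39 and 2.21 log2 CPM. All 8 dimethyl pools had reads, from 12 to 219 with a median of 52.5, and the control pools had 38, 63, 165, 6 and 49 reads. Of all 93 samples, 4 had no ets1 reads, and 3 of these 4 were the diethyl pools B, C and D. Pool E lay inside the range of the dimethyl pools, so the groups overlapped. The difference on the log2 CPM scale was -3.68 ± 0.78 (SE; 95% interval -5.24 to -2.12; limma adjusted p = 0.0119), a size that depends on the value given to a gene without reads. On a log2(CPM + 1) scale it was -2.08, with a limma adjusted p of 0.0984. The adjusted p was 0.0963, 0.0867 and 0.107 without diethyl pool B, C or D, and 0.606 when limma was fitted to the 12 pools only. Against the controls, ets1 fell by 3.45 on the log2 scale with 2,6-diethylnaphthalene (limma adjusted p = 0.0239), and its difference was 0.13 and 0.34 with 2,3- and 2,7-dimethylnaphthalene. The summed level of the 3 measured endothelial markers, cdh5, tek and pecam1, was 59.6 to 98.7 CPM in the diethyl pools, 72.1 to 107 CPM in the dimethyl pools and 77.4 to 103 CPM in the controls, and none of the 3 was at 0 throughout. All 3 had a lower mean in the diethyl pools than in the dimethyl pools, and none had an unadjusted p under 0.05. The difference of cdh5 (VE-cadherin) was -0.94 (95% interval -2.04 to 0.16). It was the median of the 3, so tek or pecam1 had a difference at least as low. Against the controls the median of the 3 was -0.96 with the diethyl compound, and -0.02 and -0.08 with the 2,3 and 2,7 isomers. cdh5 had 41, 5, 39 and 85 reads in diethyl pools B, C, D and E and 51 to 95 in the dimethyl pools. In cdh5, pool C alone was far below the rest. This pool had no ets1 reads, as did pools B and D, and the part of endothelial cells in the ets1 difference was not tested.

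The other 3 genes had at least 264 reads in each diethyl pool and smaller differences. ilk, the integrin-linked kinase that ties integrins to the actin skeleton, was at 5.30, 4.99, 4.97 and 5.04 log2 CPM in diethyl pools B, C, D and E. Its dimethyl pools ran from 5.53 to 6.17 (median 5.92) and its control pools from 5.60 to 6.12 log2 CPM, so that the diethyl pools lay under every pool of both. ilk differed by -0.82 ± 0.19 (SE; 95% interval -1.19 to -0.45; limma adjusted p = 0.0192) from the dimethyl pools. Against the controls it fell by 0.80 with the diethyl compound (limma adjusted p = 0.0263), and differed by 0.14 and -0.10 with the 2,3 and 2,7 compounds. Its mean with 2,6-diethylnaphthalene was the lowest of the 22 chemicals.

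dmtn, which encodes dematin, an actin-binding protein of the red cell membrane skeleton, was at 6.90, 6.99, 6.99 and 6.94 log2 CPM in the diethyl pools. The dimethyl pools lay lower without overlap, from 6.00 to 6.61 (median 6.52). The difference was 0.51 ± 0.11 (SE; 95% interval 0.28 to 0.74; limma adjusted p = 0.0192), and against the controls no compound passed (0.32, -0.15 and -0.22 in the order diethyl, 2,3 and 2,7). The 3 measured erythrocyte markers summed to 229 to 350 CPM in the diethyl pools and 191 to 437 CPM in the dimethyl pools, ranges that overlap.

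si:dkey-183i3.5, a gene with a clone name and no role in the sources used here, was at 9.73, 9.30, 9.35 and 9.81 log2 CPM in the diethyl pools and at 8.48 to 9.28 (median 8.82) in the dimethyl pools. The groups were apart by a small margin, between 9.30 and 9.28. The control pools, at 9.27 to 9.56 log2 CPM, covered the lower part of the diethyl range. The difference was 0.69 ± 0.14 (SE; 95% interval 0.40 to 0.97; limma adjusted p = 0.0119). Against the controls the gene differed by 0.16 with the diethyl compound, fell by 0.71 with 2,3-dimethylnaphthalene (limma adjusted p = 0.0159), and differed by -0.35 with 2,7-dimethylnaphthalene.

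**Figure D1:**
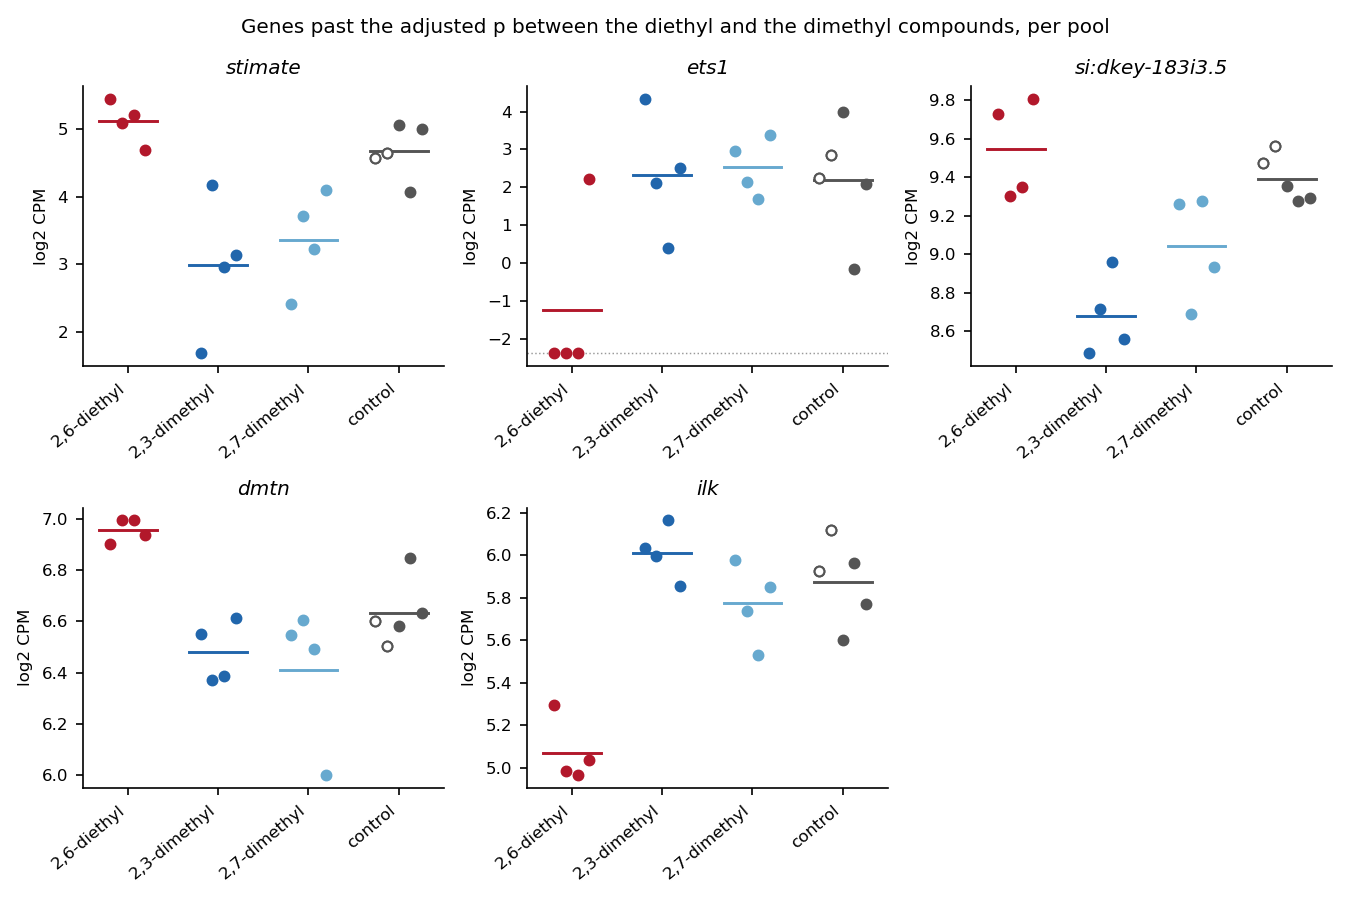
Level of the 5 genes that passed the adjusted p in the contrast of 2,6-diethylnaphthalene with both dimethyl isomers, in log2 CPM, with a point for each pool and a bar for the group mean; open control points are exposure day 1 and filled ones day 2, and the dotted line is the level of a gene without reads. The diethyl points of stimate, si:dkey-183i3.5 and dmtn lie above every dimethyl point, those of ilk lie below, and for ets1 pools B, C and D lie at -2.39 while pool E, at 2.21, lies among the dimethyl points.

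Over all 3068 genes the difference between the diethyl pools and the dimethyl pools had a median of 0 and a median size of 0.22 on the log2 scale, with a median standard error of 0.30. An unadjusted p under 0.05 was found for 133 genes with a higher mean in the diethyl pools (4.34%) and for 149 with a lower mean (4.86%), 282 in all. A p that misses the threshold does not show that the compounds act alike, so the intervals were counted. The 95% interval of the difference lay wholly within 1 log2 unit of 0 for 1704 genes (55.5%) and within 2 log2 units for 2382 genes (77.6%). The 686 genes with wider or more distant intervals were low in reads, with a median level of 0.26 log2 CPM against 5.00 for those within 2 units. For these 686 genes the interval reached past 2 log2 units, so a difference of that size was not excluded. They include ets1, whose interval (-5.24 to -2.12) lay wholly beyond 2 units.

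**Figure D2:**
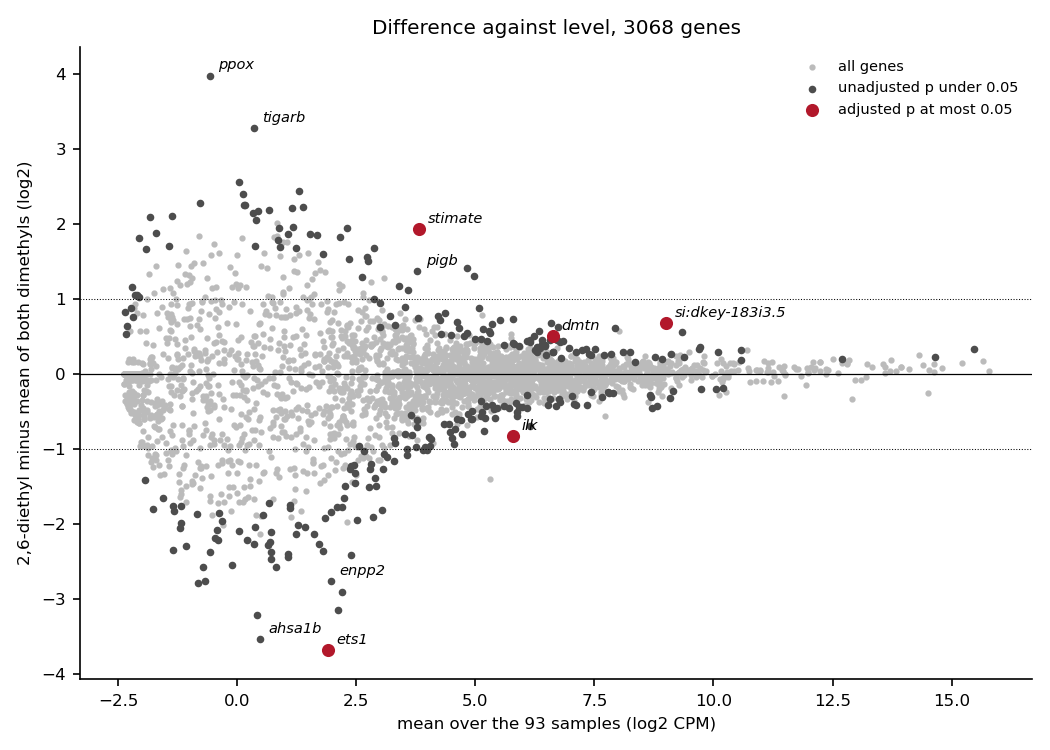
Difference of 2,6-diethylnaphthalene from the mean of both dimethyl isomers on the log2 scale (vertical axis) against the mean level in log2 CPM (horizontal axis), with a point for each of the 3068 genes. Most points lie close to 0, the scatter is widest for genes of low level, and the 5 genes that passed the adjusted p are named.

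The naming rule took the 8 genes with the smallest p in each direction, and most of the large differences among them rested on few reads. None of the following genes passed the adjusted p between the diethyl and the dimethyl pools in the limma fit of all samples. ppox, the heme synthesis enzyme protoporphyrinogen oxidase, had 26, 36, 33 and 54 reads in diethyl pools B, C, D and E. In the dimethyl pools it had no reads in 6, 1 read in another and 20 in pool E of 2,3-dimethylnaphthalene, so the groups did not overlap. Its control pools had 0, 6, 71, 23 and 16 reads, across the ranges of both. The difference was 3.98 (95% interval 1.96 to 6.01; limma adjusted p = 0.0698), and without that pool E it was 4.40 with an adjusted p of 0.026. Its size depends on the value given to pools without reads, at 2.14 on a log2(CPM + 1) scale, where it did not pass, and 5.61 with voom on the recovered reads, where it passed (adjusted p = 0.0128).

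tigarb, whose human counterpart TIGAR lowers glycolytic flux, had 24, 45, 92 and 16 reads in the diethyl pools. The 2,3-dimethylnaphthalene pools had 1, 0, 1 and 1 reads and the 2,7-dimethylnaphthalene pools 0, 22, 1 and 28, so only the first compound lay wholly below. The control pools spanned 0 to 61 reads, and the difference of 3.28 (95% interval 1.44 to 5.13) had a limma adjusted p of 0.136. pigb, a mannosyltransferase of the GPI anchor, was at 4.07, 4.89, 4.29 and 4.57 log2 CPM in the diethyl pools and at 1.57 to 4.06 (median 3.25) in the dimethyl pools, apart by a hundredth of a log2 unit (1.38 higher on average, limma adjusted p = 0.0698). The control pools were at 3.17 to 4.99 log2 CPM, a range that held all diethyl pools. Against them pigb differed by 0.39, -1.23 and -0.75 in the order diethyl, 2,3 and 2,7, and none passed. Without pool E of 2,3-dimethylnaphthalene the difference of pigb was 1.59 (limma adjusted p = 0.0149). cndp2, a cytosolic dipeptidase, had 18 reads in diethyl pool D and none in the other 92 samples, and it passed when diethyl pool B, C or E was left out (limma adjusted p = 0.0127, 0.0093 and 0.0058), on the reads of pool D alone. wu:fb14d09, which has no role in the sources used here, had 19 and 24 reads in diethyl pools C and D and none in the other diethyl pools, the dimethyl pools or the controls.

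In the other direction, enpp2, which encodes autotaxin, the enzyme that makes the signalling lipid lysophosphatidic acid, had 0, 29, 62 and 1 reads in diethyl pools B, C, D and E. The dimethyl pools had 48 to 94 reads (median 74) and the controls 23 to 64, so pools B and E were the low ones and pool D overlapped the dimethyl range. The difference was -2.76 (95% interval -4.10 to -1.42; limma adjusted p = 0.0557). It passed without diethyl pool C (adjusted p = 0.0237) or pool D (0.0089), without pool E of 2,3-dimethylnaphthalene (0.0466), with a filter at a mean of 1 CPM (0.0461) and with centred samples (0.0494).

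ahsa1b, an activator of the HSP90 ATPase, had 0, 1, 0 and 4 reads in the diethyl pools and 5 to 119 (median 39) in the dimethyl pools, with no overlap. The controls had 1, 0, 0, 3 and 11 reads, like the diethyl pools. The difference was -3.53 (95% interval -5.35 to -1.71; limma adjusted p = 0.0728), and it passed without pool D of 2,3-dimethylnaphthalene (-3.85, adjusted p = 0.0462). Against the controls, ahsa1b rose by 3.56 with 2,7-dimethylnaphthalene (limma adjusted p = 0.0346), and differed by 2.79 with 2,3-dimethylnaphthalene and by -0.36 with 2,6-diethylnaphthalene, neither of which passed.

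cax1, a cation and proton exchanger, had 11, 10, 24 and 0 reads in the diethyl pools and 84 to 194 in every dimethyl pool except pool C of 2,7-dimethylnaphthalene, which had none. Without that pool its difference was -3.66 (limma adjusted p = 0.0113), against -2.90 with it (adjusted p = 0.125). sst1.1, the hormone somatostatin, was at 1.27, 1.75, 0.71 and 3.33 log2 CPM in the diethyl pools and at 2.05 to 3.59 in the dimethyl pools, so pool E stood with the dimethyl pools. Its difference was -1.26 (adjusted p = 0.132), and -1.78 without pool E (limma adjusted p = 0.0058). rbm12b, an RNA-binding protein, differed by -0.83 (adjusted p = 0.105).

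**Figure D3:**
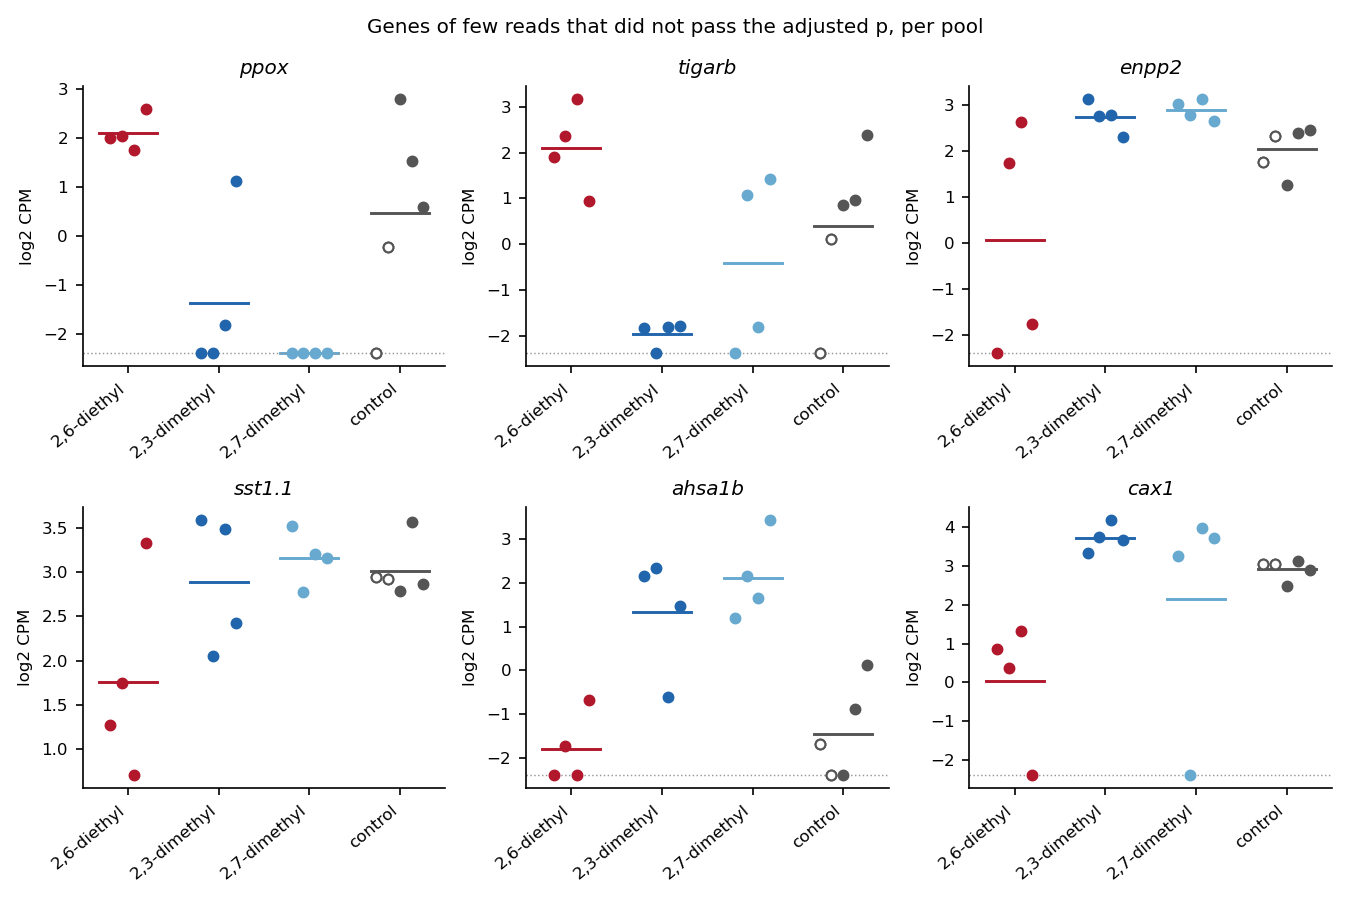
Level in log2 CPM of named genes with few reads that did not pass the adjusted p between the diethyl and dimethyl pools. There is a point for each pool of 2,6-diethylnaphthalene, 2,3-dimethylnaphthalene, 2,7-dimethylnaphthalene and the control, and a bar for the group mean. A dotted line marks the level of a gene without reads (-2.39). The points at the dotted line are pools without a read, such as 6 dimethyl pools for ppox and diethyl pools B and D for ahsa1b.

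In 11 genes (0.359%) all 4 diethyl pools lay above all 8 dimethyl pools, and in 4 genes (0.13%) they all lay below. Of these, 10 and 3 had an unadjusted p under 0.05. The genes not yet described were chosen after their values were seen. Above were ncapd2 (a condensin subunit, by 1.00), col12a1a (collagen XII, by 0.78), ppcs (an enzyme of coenzyme A synthesis, by 0.75), gria3a (a glutamate receptor subunit, by 0.63), taf7 (a subunit of the general factor TFIID, by 0.63) and a gene known only by a locus number. Below were hmox1a, the heme-degrading heme oxygenase, by 0.41, and mapk14a, a p38 kinase, by 0.37. hmox1a was at 6.77 to 7.03 log2 CPM in the diethyl pools, 7.05 to 7.67 in the dimethyl pools and 6.85 to 7.57 in the controls. None of these genes passed the adjusted p. For 10 of the 11 genes above, the diethyl mean was the highest of the 22 chemicals. The genes were picked by these same values, so neither this rank nor their unadjusted p is separate support. How many genes would part in this way by chance was not tested.

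The 3 pairs of compounds were also compared one by one, with p adjusted over the genes and the 3 pairs together (9204 tests). There were 0 DEGs between 2,6-diethyl- and 2,3-dimethylnaphthalene (0%), 0 between 2,6-diethyl- and 2,7-dimethylnaphthalene (0%) and 0 between the dimethyl isomers (0%). The counts at an unadjusted p under 0.05 were 254, 300 and 245 with limma, and 233, 273 and 255 with voom, which also called 0 genes in each pair. These counts were not tested against each other. With p adjusted over the genes of a pair alone, as in the other comparisons, the pair with the 2,3 isomer had 1 DEG, stimate (limma adjusted p = 0.0366), and 3 genes past the adjusted p, and the other pairs had 0. Over genes and pairs, the only gene past the adjusted p was si:dkey-183i3.5 between the diethyl and the 2,3-dimethyl compound, with a difference of 0.87 (95% interval 0.54 to 1.2; limma adjusted p = 0.0129). The same gene differed by 0.51 (0.18 to 0.84; adjusted p = 0.336) from the 2,7 isomer.

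For stimate the difference was 2.12 (95% interval 1.18 to 3.06; limma adjusted p = 0.11) against the 2,3 isomer and 1.75 (0.81 to 2.69; adjusted p = 0.197) against the 2,7 isomer, and the isomers differed by 0.37 (-0.57 to 1.31). For ets1 the differences were -3.57 (-5.37 to -1.78) and -3.78 (-5.58 to -1.99), with a limma adjusted p of 0.144 in both, and the isomers differed by 0.21 (-1.59 to 2.01). For ilk they were -0.94 (-1.37 to -0.52) and -0.70 (-1.13 to -0.28), and for dmtn 0.48 (0.21 to 0.74) and 0.55 (0.28 to 0.81). In each of these 4 genes the diethyl compound stood on the same side of both isomers, and the interval between the isomers included 0. In si:dkey-183i3.5 it also stood above both, but there the isomers differed by 0.36, higher in the 2,7 isomer, with an interval of 0.03 to 0.69 that did not include 0 (limma adjusted p = 0.523). All of these genes were picked by their difference from the mean of both isomers in the same pools. Neither the shared side nor their ranks among all chemicals is therefore separate support. The intervals lay within 1 log2 unit of 0 for 1550 genes (50.5%) between the diethyl and 2,3-dimethyl compounds, for 1548 genes (50.5%) between the diethyl and 2,7-dimethyl compounds, and for 1579 genes (51.5%) between the isomers. Within 2 units they were 2236 (72.9%), 2208 (72%) and 2248 (73.3%) genes.

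Each compound was then set against the 5 control pools. These comparisons share the control pools, so their values are given side by side. There were 9 DEGs with 2,6-diethylnaphthalene (0.293%), 3 with 2,3-dimethylnaphthalene (0.0978%) and 17 with 2,7-dimethylnaphthalene (0.554%). The adjusted p alone was passed by 47, 19 and 66 genes. The count for the diethyl compound was 2 without control pool A of exposure day 1, 3 without pool C of that day and 3 without diethyl pool D. For the 2,3 isomer it was 1 without either of those control pools and 0 without its own pool E, and for the 2,7 isomer it was 8 and 10 without those controls and 11 without its own pool B. With the 2 day 1 control pools only, the counts were 19, 16 and 26. Of the 26 genes called in any of the 3 comparisons, 24 were called with 1 compound, slc2a1b with 2 and chek2 with all 3.

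With 2,6-diethylnaphthalene 5 of the 9 DEGs rose. Without the fold minimum, 23 genes rose and 24 fell. slc2a1b, a glucose transporter, was at 3.16, 4.34, 4.08 and 4.57 log2 CPM in the diethyl pools and at -0.36 to 2.16 in the controls, without overlap, and rose by 2.61 (limma adjusted p = 0.0169). In the same gene 2,7-dimethylnaphthalene gave a rise of 3.30 (limma adjusted p = 0.00058), and 2,3-dimethylnaphthalene a difference of 1.04 that did not pass. chek2, a checkpoint kinase of the DNA damage response, rose by 1.38 with the diethyl compound, 1.23 with the 2,3 isomer and 1.12 with the 2,7 isomer (limma adjusted p = 0.0169, 0.0398 and 0.0378). The diethyl compound differed from the mean of both isomers by 0.21 in chek2 (95% interval -0.37 to 0.78) and by 0.44 in slc2a1b (-0.63 to 1.51). The other day 1 chemicals had means of 2.24 to 4.58 log2 CPM in slc2a1b and 3.90 to 4.78 in chek2. These ranges held the diethyl means (4.04 and 4.62) and lay above the control means (1.43 and 3.25). A higher level than in the controls was thus not particular to these compounds.

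usp1, a deubiquitinase of DNA repair proteins, rose by 1.37 with the diethyl compound (limma adjusted p = 0.0354) and differed by 1.01 and 1.14 with the 2,3 and 2,7 isomers. ilf2, a double-stranded RNA-binding protein, rose by 1.32 (adjusted p = 0.022 by limma) and differed by 0.71 and 0.95, and cx30.3, a skin connexin, rose by 1.62 (adjusted p = 0.0456 by limma) and differed by 0.92 and 1.28. In these genes the isomers had means above the controls that did not pass. The differences between the diethyl and the dimethyl pools had intervals that included 0, namely -0.36 to 0.94 for usp1, -0.08 to 1.06 for ilf2 and -0.30 to 1.35 for cx30.3. In cx30.3 the other day 1 chemicals had means of 3.09 to 3.82 log2 CPM. This range held the diethyl mean (3.64) and lay above the control mean (2.01). In ilf2 their means were 5.15 to 6.14 log2 CPM, under the diethyl mean (6.30) and above the control mean (4.98).

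The 4 DEGs that fell were ace, ets1, fkbp5 and cyth1a. ace, the angiotensin converting enzyme, had 0, 1, 0 and 0 reads in the diethyl pools, 1 to 37 in the dimethyl pools and 18 to 38 in the controls, so all diethyl pools lay under all controls while 3 of the dimethyl pools, with 1 read each, lay among them. It fell by 3.79 against the controls (limma adjusted p = 0.0356), a size that depends on the value given to pools without reads, and its difference from the dimethyl pools was -2.28 (95% interval -4.11 to -0.45; adjusted p = 0.41). cyth1a, an exchange factor of ARF GTPases, was at 2.81, 2.98, 4.02 and 2.81 log2 CPM in the diethyl pools and 3.90 to 5.45 in the controls, and fell by 1.36 (limma adjusted p = 0.0423). With the isomers it differed by -0.13 and -0.56, and the diethyl pools differed from the dimethyl pools by -1.01 (-1.69 to -0.33; adjusted p = 0.346).

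Other genes passed with the isomers. With 2,3-dimethylnaphthalene egr1, an immediate early transcription factor, fell by 1.59 and phkb, a phosphorylase kinase subunit, fell by 2.49 (limma adjusted p = 0.0367 for both). In the diethyl pools egr1 differed from the controls by -0.62 and phkb by -0.74, and the contrast with the dimethyl pools was 0.42 (-0.30 to 1.13) and 0.62 (-0.53 to 1.76). With 2,7-dimethylnaphthalene ihha, a hedgehog ligand of the growing skeleton, fell by 4.47 (limma adjusted p = 0.0015), with 0, 0, 5 and 0 reads in its pools against 36 to 72 in the controls. The diethyl pools had 8, 69, 45 and 24 ihha reads and the 2,3 isomer 7, 26, 55 and 67. Between the diethyl compound and the 2,7 isomer ihha differed by 3.71 (95% interval 1.83 to 5.59), with an adjusted p of 0.147 over genes and pairs by limma. With the 2,7 isomer tgfbi, a matrix protein, also fell by 1.09, tcerg1a, a transcription elongation regulator, fell by 1.22, si:dkey-46i9.6 fell by 1.05, and crtap, a collagen prolyl hydroxylation factor, rose by 1.06 (limma adjusted p = 0.00063, 0.0034, 0.00063 and 0.0099). For the diethyl compound these 4 were -0.35, -0.58, -0.64 and 0.77, and none passed.

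**Figure D4:**
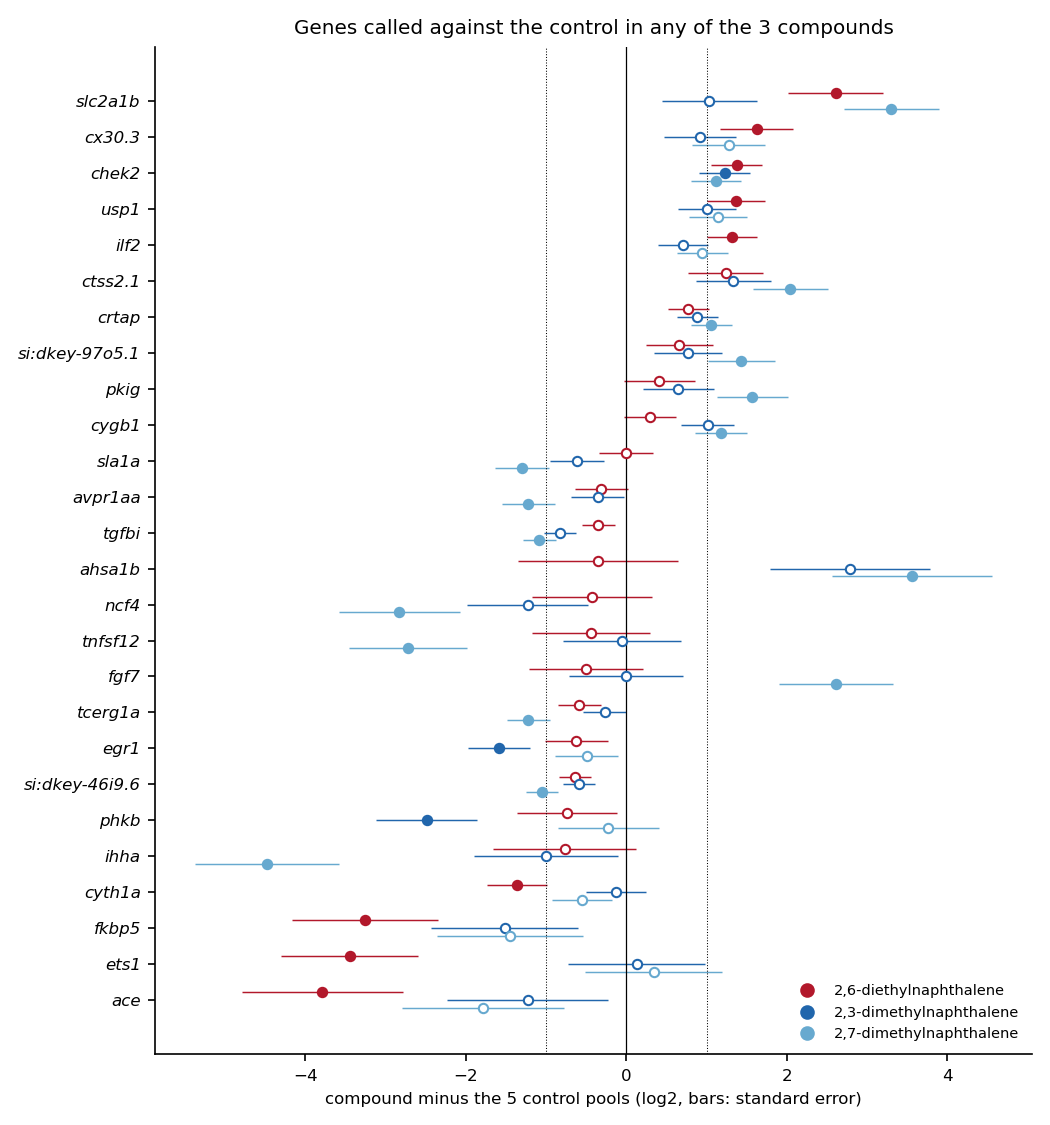
Log2 fold change against the 5 control pools for genes called in any of the 3 comparisons, with a point for each compound, a bar for the standard error and a filled point for a DEG. chek2 is filled for all 3 compounds and slc2a1b for 2,6-diethyl- and 2,7-dimethylnaphthalene, while ets1, ace, fkbp5 and cyth1a are filled for 2,6-diethylnaphthalene and ihha for 2,7-dimethylnaphthalene.

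The study names 7 genes for their expression across the chemicals, and they are given for that reason. fkbp5, a receptor co-chaperone that glucocorticoids induce, had 5, 72, 14 and 109 reads in diethyl pools B, C, D and E (-0.10, 3.02, 0.62 and 3.58 log2 CPM). The dimethyl pools ran from 39 to 324 reads (median 135) and the controls from 131 to 463. Diethyl pools B and D were under every dimethyl pool and pools C and E were inside their range. Against the controls fkbp5 fell by 3.25 ± 0.91 (SE) with the diethyl compound (limma adjusted p = 0.0466), and differed by -1.52 and -1.44 with the isomers (adjusted p = 0.506 and 0.504). The diethyl compound differed from the dimethyl pools by -1.77 (95% interval -3.43 to -0.12; limma adjusted p = 0.52). A call with 1 compound and not with the others was thus not matched by a passing difference between them. From the lowest fkbp5 mean of the 22 chemicals, the diethyl compound ranked 11 and the 2,3 and 2,7 isomers 20 and 21. The other day 1 chemicals had means of 0.57 to 2.89 log2 CPM, a range that held the diethyl mean (1.78). Both isomers lay above it, at 3.52 and 3.59 log2 CPM. The paper reports fkbp5 as its most frequent DEG, so a low level was not particular to the diethyl compound.

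klf9 and klf11a are Kruppel-like transcription factors, the first a glucocorticoid target. klf9 differed from the controls by -1.87, -1.52 and -1.01 in the order diethyl, 2,3 and 2,7, and none passed. klf11a fell by 0.93 with the 2,3 isomer (limma adjusted p = 0.0159) and differed by -0.70 and -0.68 with the diethyl compound and the 2,7 isomer (adjusted p = 0.0549 and 0.0543). The diethyl compound and the dimethyl pools were close in klf11a, with a difference of 0.11 (95% interval -0.26 to 0.47), while the interval of klf9 was wide (-2.21 to 0.98).

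fgfbp2b, which encodes a carrier protein of fibroblast growth factors, differed from the controls by -0.69 with the diethyl compound (adjusted p = 0.0724) and fell by 0.87 and 0.79 with the isomers (limma adjusted p = 0.0367 and 0.0302). Its diethyl to dimethyl difference was 0.14 (-0.25 to 0.52). ctss2.1, a cathepsin S protease, differed by 1.24 and 1.33 with the diethyl compound and the 2,3 isomer and rose by 2.04 with the 2,7 isomer (limma adjusted p = 0.0059). nt5dc2, of the nucleotidase domain family, differed by -0.22 and -0.41 and fell by 0.64 with the 2,7 isomer (limma adjusted p = 0.0025). The diethyl to dimethyl difference was -0.45 (-1.30 to 0.39) in ctss2.1 and 0.30 (0.05 to 0.55; adjusted p = 0.415) in nt5dc2. nt5e, a nucleotidase of the cell surface, had at most 42 reads in any of the 12 pools and an interval of -1.63 to 2.35.

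Lists of genes were described by their counts at an unadjusted p under 0.05, beside 4.34% higher and 4.86% lower over all genes. Differences above and below 0 numbered 1421 and 1513 over all genes. They numbered 6 and 17 in the endoplasmic reticulum stress list, 16 and 29 in the extracellular matrix list and 4 and 13 in the steroid list. They numbered 30 and 18 in the sterol and fatty acid list and 14 and 7 in the list of other cytochrome P450 enzymes. Whether a list leaned to one side was not tested. Of the aryl hydrocarbon receptor list 15 of 25 genes were measured, with a median difference of 0.11 on the log2 scale, 0 higher and 1 lower. The lower one was ahr2, the main receptor of zebrafish for such ligands, at 4.73, 4.78, 4.71 and 3.93 log2 CPM in the diethyl pools and 4.55 to 5.60 in the dimethyl pools, which overlap, with a difference of -0.49 (limma adjusted p = 0.52). Against the controls, at 4.91 to 6.10 log2 CPM, ahr2 fell by 0.91 with the diethyl compound (limma adjusted p = 0.0472), and differed by -0.52 and -0.31 with the 2,3 and 2,7 isomers. cyp1a, the enzyme induced through it, was at 1.36, 2.71, 1.38 and 1.42 log2 CPM in the diethyl pools, 1.43 to 2.57 in the dimethyl pools and -2.39 to 3.17 in the controls. Its difference was -0.23 (-1.89 to 1.44). Those of the other family members were 0.20 (-0.56 to 0.97) for cyp1b1, 0.34 (-0.39 to 1.06) for cyp1c1, 0.48 (-0.41 to 1.37) for cyp1c2 and 0.17 (-0.35 to 0.69) for cyp1d1. None of these cyp1 genes was called against the controls with any of the 3 compounds.

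Of the other cytochrome P450 enzymes 24 of 80 listed were measured, with a median of 0.14, 3 higher and 1 lower. The higher ones were cyp2y3, at 10.28, 9.87, 9.87 and 9.90 log2 CPM in the diethyl pools against 9.43 to 9.94 in the dimethyl pools, cyp51, the sterol demethylase of cholesterol synthesis, and cyp2aa8. The differences were 0.33 (limma adjusted p = 0.319), 1.12 (0.346) and 0.45 (0.52), and the lower one, cyp2aa1, differed by -1.74 (0.418), so none passed. The alcohol, aldehyde and epoxide enzymes (16 measured, median -0.13) had 0 higher and 1 lower, mao (monoamine oxidase), and ephx1, the microsomal epoxide hydrolase, differed by -0.65 (-1.46 to 0.16). The conjugation enzymes and transporters (29 measured, median 0.05) had 0 in either direction, with 18 differences above 0 and 9 below, and gstp1, a glutathione transferase, had an interval of -0.29 to 0.17.

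The heat shock proteins and chaperones (29 measured) had a median of -0.19, with 21 of 29 differences below 0, 1 higher and 5 lower. The higher gene was hsp70l, a heat-inducible HSP70, at 3.18, 3.35, 3.34 and 4.80 log2 CPM in the diethyl pools and -0.04 to 3.76 in the dimethyl pools (difference 1.69, adjusted p = 0.376 by limma). The lower ones were ahsa1b, fkbp5, dnajb9a and hsp90b1 (chaperones of the endoplasmic reticulum) and bag3, an HSP70 co-chaperone, at 4.85, 2.87, 2.60 and 4.53 log2 CPM against 3.85 to 5.38, where pools C and D alone were low. The oxidative stress list (26 measured, median -0.05) had 0 higher and 3 lower, namely hmox1a, cybb and gpx1a. gpx1a had 2, 4, 25 and 280 reads in the diethyl pools, 8 to 495 in the dimethyl pools and 6 to 352 in the controls. cybb had 27, 0, 1 and 44 reads in the diethyl pools, 10 to 81 in the dimethyl pools and 8 to 139 in the controls. For cybb only diethyl pools C and D were low. The endoplasmic reticulum stress list (23 measured, median -0.09) had 1 higher and 2 lower. No gene of these 3 lists passed the adjusted p.

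The glucocorticoid receptor list (21 of 33 measured) had a median of 0.00, with ddit4, a stress-induced inhibitor of mTOR signalling, higher by 1.87 on average and fkbp5 lower. ddit4 had 38, 83, 78 and 78 reads in the diethyl pools and 0 to 88 in the dimethyl pools. The circadian clock list (14 measured) had a median of -0.27 with 10 of 14 differences below 0 and none under p of 0.05. The immediate early list (20 measured, median 0.08) had atf3 (0.73) higher and junba (-0.76) lower, both subunits of AP-1 and related dimers. The Kruppel-like list held only 4 measured genes and none under that p.

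The extracellular matrix list (46 measured, median -0.12) was the only one with a member, ilk, past the adjusted p between the diethyl and dimethyl pools. It had 3 higher (col12a1a, itgb5 and matn1) and 2 lower (ilk and hspg2, the basement membrane protein perlecan). Of the 12 pools, itgb5 had reads only in diethyl pool D (10), and matn1 had 27, 20, 0 and 1 reads in the diethyl pools and at most 1 in a dimethyl pool. hspg2 was at 5.43, 4.68, 4.49 and 4.79 log2 CPM in the diethyl pools and 5.09 to 5.79 in the dimethyl pools, so that pools C, D and E lay under all of them. Its difference was -0.58 (limma adjusted p = 0.375). Against the controls hspg2 differed by -0.07 with the diethyl compound and by 0.34 and 0.68 with the 2,3 and 2,7 isomers, and none passed. The nucleotidase and folate list (14 measured, median 0.20) had 3 higher (nt5dc2, tyms and entpd1) and 1 lower (enpp2). The sterol and fatty acid list (49 measured, median 0.04) had 3 higher (cyp51, fabp11b and slc27a2a) and 0 lower. In slc27a2a the diethyl pools had 47, 44, 36 and 28 reads. The 2,3 isomer had 1, 1, 6 and 0 and the 2,7 isomer 86, 51, 26 and 73, so the diethyl compound was not above the 2,7 isomer.

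The cell cycle list (81 measured, median -0.05) had 2 higher and 3 lower. cks2, a subunit of cyclin-dependent kinases, was at 6.61, 6.65, 6.76 and 6.05 log2 CPM in the diethyl pools against 5.61 to 6.42, so pools B, C and D lay above all dimethyl pools. cdc45, of the replicative helicase, had 0, 1, 27 and 1 reads in the diethyl pools, 5 to 60 in the dimethyl pools and 0 to 45 in the controls. The list of p53, DNA damage and apoptosis genes (40 measured, median -0.01) had plk3, a stress kinase (-0.40), and rrm2b, a ribonucleotide reductase subunit (-0.86), lower. The thyroid and retinoid list (17 measured, median -0.10) had duox (0.69), a hydrogen peroxide source, higher and raraa (-1.81), a retinoic acid receptor, lower. raraa had 1, 163, 10 and 66 reads in the diethyl pools and 44 to 170 in the dimethyl pools. Only pools B and D were low.

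The remaining lists had at most 3 genes under p of 0.05. They were hypoxia and glycolysis (27 measured, median 0.03), mitochondrial respiration and ribosome (31, 0.03), immune genes (61, 0.00), fibroblast growth factor and hedgehog signalling (22, -0.02), steroid signalling (22, -0.11) and lysosome (19, -0.07, with none).

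**Figure D5:**
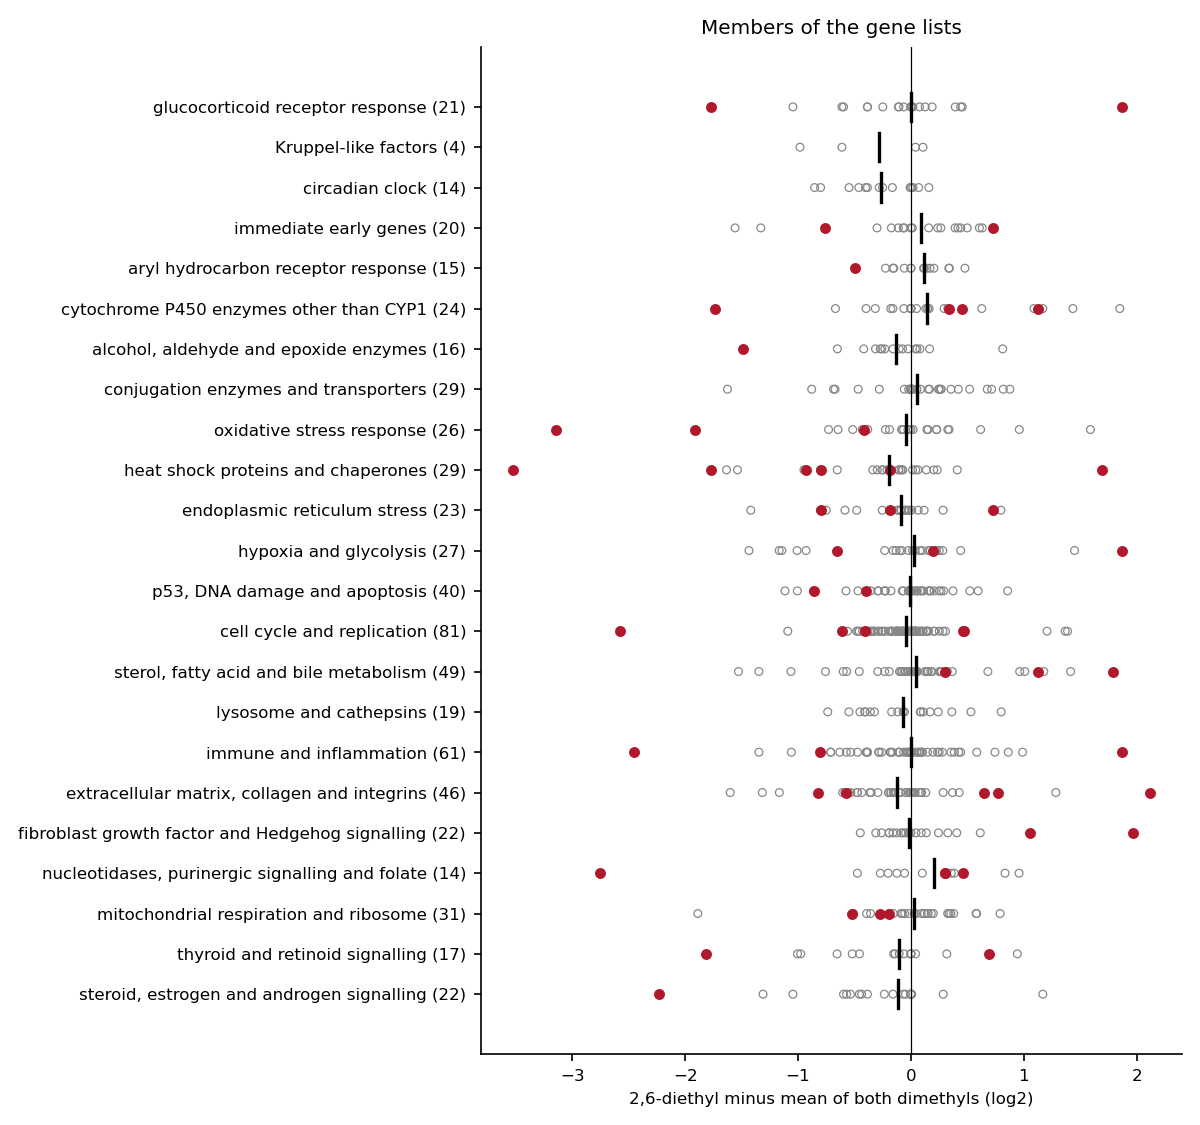
Difference of 2,6-diethylnaphthalene from the mean of both dimethyl isomers on the log2 scale for each measured gene of each list, with the number measured in parentheses, a black bar for the median of the list and red points for an unadjusted p under 0.05. The medians lie between -0.29 (Kruppel-like factors) and 0.20 (nucleotidases and folate) beside a median of 0 over all genes.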

How the data were processed

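RNA of whole-embryo pools was measured by TempO-Seq. The authors counted reads with TempO-SeqR, summed the probes of a gene, removed control day 1 pool B as an outlier in a PCA, corrected the counts for exposure and extraction day with ComBat_seq and scaled them by the upper quartile with edgeR (version not given in the sources used here). The build in the labels is GRCz 11. The deposited values are log2 CPM with a prior count of 2, for 3068 genes, 1 of which has a number in place of a name and was tested but not named. A second deposited file of the authors holds log2 fold changes, p-values, adjusted p-values, moderated t and log-odds scores of each chemical against the control, and was not used. The batch correction altered counts by exposure day, and the compounds share 1 day while the controls do not.

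limma 3.58.1 in R 4.3.3 (lmFit, contrasts.fit and eBayes with defaults) was fitted to the log2 values of 93 samples in 23 groups, without covariates. A p was adjusted by Benjamini-Hochberg over the genes of a comparison, and over genes and pairs for the 3 pairs. Intervals are 95% intervals of this fit. The paper states that embryos were pooled in their vial groups, but its numbers of vials and pools do not settle whether every pool had its own vial. The p-values measure the spread between pools, estimated over all 23 groups. The 3 compounds were exposed on day 1 only, so the spread between repeated exposures of a compound was not measured. Whole reads, which are counts after the batch correction, were recovered for 100% of the values within 0.02 reads. The script was checked on simulated counts.

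Alternatives were another pseudocount (1), a filter at a mean of 1 CPM, smaller fits, exposure day 1 only, a replicate block, centring, a trended prior, voom on the recovered reads, day 1 controls only, and leaving out each pool. The members, gene lists and tests were chosen with earlier results of these data known. Genes were named if they were DEGs, were among the 8 smallest p in either direction with a difference of at least 0.5, were among the 12 smallest p of the 26 DEGs against the control or of the 13 list members with a p under 0.01, or are named by the study for expression. Of the genes the rule takes, 1 is not reported here. The 3 genes past the adjusted p without the fold minimum fell under this rule. The other genes named among the DEGs against the control, the list members, the markers and the genes whose groups do not overlap were chosen after their values were seen.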

Additional observations from a re-analysis of the deposited data

Results flagged for a closer look

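In the named genes, 161 groups of 4 or 5 pools were examined for a pool that stood far from the rest of its group, and 24 had one. Chance flags about 1 in 20 groups, and genes with few reads are flagged easily because 1 pool with reads stands apart from pools at -2.39. All values are log2 CPM.

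In the 2,6-diethylnaphthalene pools, ets1 was at 2.21 in pool E against -2.39 in the others, and cndp2 was at 0.95 in pool D against -2.39. cdc45 was at 1.48 in pool D with -1.73 as the nearest value, hsp70l was at 4.80 in pool E with 3.35 nearest, and cyp2y3 was at 10.28 in pool B with 9.90 nearest. The 5 flags fall on pools B, D and E, and no pool carries more than 2 of them.

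In the 2,3-dimethylnaphthalene pools, ppox was at 1.13 in pool E, tigarb at -2.39 in pool C, slc2a1b at 1.2 in pool B and bag3 at 3.94 in pool E. The tigarb flag was 0 reads in pool C against 1 read in each of pools B, D and E. In the 2,7-dimethylnaphthalene pools, cax1 was at -2.39 in pool C, ihha at -0.58 in pool D, ilf2 at 6.58 in pool E, egr1 at 4.04 in pool C, si:dkey-46i9.6 at 5.00 in pool B and nt5e at 2.08 in pool D.

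In the control pools, sst1.1 was at 3.56, slc2a1b at -0.36 and nt5e at 1.94 in pool B of exposure day 2. si:dkey-46i9.6 was at 7.04, cks2 at 6.37 and hspg2 at 3.96 in pool C of day 2, and tcerg1a was at 4.37 in pool A of day 2. ctss2.1 was at -0.92 in pool C of day 1, and fkbp5 was at 3.99 in pool A of day 1 with 5.07 as the nearest control.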

How the results depend on the processing

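The counts of DEGs between the compounds were small under every alternative run, and the sets changed with single pools. The main contrast (2 DEGs) gave 0 with the 12 pools only and 1 with log2(CPM + 1), and 1 to 5 when a pool was left out. Without diethyl pool B or D the 1 gene called was neither stimate nor ets1. The pair with the 2,3 isomer (0) gave 1 with only its groups in the fit, 1 with exposure day 1 only, and 0 to 3 without a pool. The pair with the 2,7 isomer (0) gave 2, 1 and 0 to 3, and the isomers (0) gave 3 with only their groups. Against the control, the diethyl compound (9) gave 0 with only its groups in the fit (348 genes at an unadjusted p under 0.05 in limma), 4 with voom, 19 with day 1 controls, 22 with exposure day 1 only and 2 to 11 without a pool. The 2,3 isomer (3) gave 0 with only its groups in the fit (316 genes at an unadjusted p under 0.05), 16, 17 and 0 to 5, and the 2,7 isomer (17) gave 10 with only its groups in the fit, 26 with day 1 controls and 8 to 24 without a pool. Pool letters did not pair the samples, since deviations of pools with the same letter correlated at -0.07 to 0.04 and 4 of 12 pools correlated best with their own letter. The replicate block gave 2 DEGs in the main contrast, 6 for the 2,3 isomer against the control and, with the 12 pools only, 0 (192 genes at an unadjusted p under 0.05). The cause of these changes was not tested. Centring moved the median of all genes by at most 0.04 and gave 5 higher and 2 lower DEGs for the diethyl compound, against 5 and 4, 7 and 8 for the 2,7 isomer, against 9 and 8, and 1 and 2 in the main contrast. Signs turned for nt5e with log2(CPM + 1) (-0.062) and without diethyl pool E (-0.061, range to 0.89), tcerg1a without diethyl pool B (-0.039, range to 0.30) and klf11a without diethyl pool B (-0.033, range to 0.18). The differences of ilk, dmtn and si:dkey-183i3.5 kept their sign under all 21 alternatives, at -0.90 to -0.79, 0.44 to 0.54 and 0.60 to 0.77, with a limma adjusted p up to 0.136, 0.627 and 0.627.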

Other observations

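Of the 282 genes with an unadjusted p under 0.05 in the contrast of the diethyl with the dimethyl pools, the 133 with a higher mean had a median level of 4.83 log2 CPM over all samples and the 149 with a lower mean 3.28 log2 CPM, beside 3.98 log2 CPM over all genes. The diethyl pools had fewer batch-corrected reads (median 9.55 M against 10.7 M) and more genes without reads (462 to 541 against 425 to 491). The part of depth in the 282 genes was not tested. Pools of the diethyl compound correlated with each other across genes at 0.931 to 0.942, with the dimethyl pools at 0.924 to 0.944, and the pools of the isomers with each other at 0.928 to 0.942. Genes are not independent replicates, and the ranges overlap.

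fgf7, a growth factor ligand chosen here after its values were seen, had 0 reads in all 4 diethyl pools and in 3 of 4 pools of 2,3-dimethylnaphthalene, and 31, 13, 9 and 14 reads in the 2,7-dimethylnaphthalene pools. Against the controls, with 0 to 4 reads, it rose with the 2,7 isomer (log2 difference 2.61, limma adjusted p = 0.0302). ndufb3, a respiratory complex I subunit also chosen after its values were seen, fell against the controls by 0.88 with the diethyl compound and by 0.66 with the 2,7 isomer (limma adjusted p = 0.00046 and 0.0063), and differed by -0.54 with the 2,3 isomer (adjusted p = 0.0642). The diethyl to dimethyl difference in ndufb3 was -0.28 (95% interval -0.55 to 0.00; adjusted p = 0.537).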
